A study of Mus musculus with 16 samples.

Results

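In mice that had lost Sirt6, the soft inner core of the intervertebral disc, the nucleus pulposus (NP), was compared with its layered outer ring, the annulus fibrosus (AF). All arrays whose labels name the Sirt6 cKO genotype were taken, 4 of NP and 4 of AF, which are 8 of the 16 arrays of the series. The study examined how loss of this deacetylase in adult disc cells affected the aging disc. The other 8 arrays carried NP and AF of Sirt6 fl/fl mice and served here to set the tissue difference of the cKO mice against that of mice with an intact gene. Sirt6 cKO mice carried floxed Sirt6 alleles and AcanCreERT2, a tamoxifen-inducible Cre recombinase driven from the aggrecan locus, so the deletion reached only cells that expressed aggrecan at the time of treatment. Littermate Sirt6 fl/fl mice lacked the Cre and received tamoxifen as well. All mice were males of a mixed strain background and were 24 months old. Each array held the pooled NP or the pooled AF of lumbar and caudal discs from 1 mouse, and the series design states that 4 mice of each genotype gave both tissues, so the NP and AF arrays of a genotype come from the same animals. The labels do not state that equal array numbers mark the same mouse.

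NP cells descend from the notochord and are known for cytokeratins 8, 18 and 19 and for the transcription factor brachyury, and they live in a hydrated, avascular and osmotically loaded matrix rich in aggrecan and type II collagen. AF cells derive from the sclerotome, the outer ones resemble tendon fibroblasts that lay down fibrillar type I and type III collagen, and the inner ones resemble fibrocartilage. In old discs NP cells often take on features of chondrocytes. SIRT6 is a nuclear NAD-dependent enzyme that removes acetyl groups from histone H3.

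Values are log2 signals from which the median of the array was subtracted, called centred signal, because the deposited arrays differed by tissue as a whole. Before centring the array medians lay between 4.41 and 4.49 in cKO NP, against 4.93 and 5.0 in cKO AF, and the median over 23 background controls lay between 4.28 and 4.33 in cKO NP, against 4.65 and 4.79 in cKO AF. A gene counts as over background where it exceeded that control median at least 2-fold on the array. This held for 15.5% to 17.8% of named probe sets on cKO NP arrays, against 20.5% to 22.6% on cKO AF arrays, so most genes lay near background. Because NP and AF differ as array sets, the biology of the tissues and the handling of each set cannot be told apart. Control probe sets are set beside the named ones here, but they do not separate handling from biology either. Intron controls should carry no signal of a spliced transcript, while exon controls can carry transcript signal. The source of the signal of these controls was not tested. Of 5222 intron control probe sets 13.2% had an unadjusted p under 0.05 between the tissues in cKO mice and 5.92% had arrays that did not overlap, against 15.5% and 11.8% of the 19572 named probe sets. At the thresholds that the study applied to genotypes (an unadjusted p up to 0.05 and a log2 difference of 0.81 or more) the order was the other way, with 12.3% of intron controls and 14.3% of 1324 exon controls passing, against 10.9% of the named probe sets before any filter on low signal. Of the 23 background controls 56.5% had centred signals that did not overlap between the tissues. Array 1 of cKO AF stood apart, with r = 0.513 to the mean of the other 3 cKO AF arrays, against 0.728 to 0.749 for those 3 arrays.

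Sirt6 itself was under background on all 16 arrays and did not enter the tests. Its centred signal was -0.72, -0.78, -0.61 and 0.07 in cKO NP, against -1.54, -0.62, -0.11 and -0.85 in cKO AF. In the floxed mice it was -0.72, -0.69, -0.28 and -0.34 in fl/fl NP, against -0.37, -0.38, -0.49 and 0.15 in fl/fl AF. The ranges of all 4 groups overlapped, and the position of the probe set relative to the floxed exons was not analysed here, so these values do not check the labels. Brachyury was not analysed here.

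Promoters of 4 genes on which the results turn are shown first, a pair that stood higher in NP (Ccn1 and Krt8) and a pair that stood lower in NP (Chek1 and Col3a1). The sequences are those of RefSeq on GRCm38.p6, written 5′ to 3′ on the strand of the gene, with 250 bases before the annotated start and 50 bases from it. Capitals mark TATAAA or its reverse complement TTTATA, the core of the TATA box, which was searched on both strands, and the 2 forms overlap in Krt8. Ccn1 lies at chr3:145649936-145650235 on the minus strand, Krt8 at chr15:102004293-102004592 on the minus strand, Chek1 at chr9:36726609-36726908 on the minus strand and Col3a1 at chr1:45311288-45311587 on the plus strand.
Ccn1: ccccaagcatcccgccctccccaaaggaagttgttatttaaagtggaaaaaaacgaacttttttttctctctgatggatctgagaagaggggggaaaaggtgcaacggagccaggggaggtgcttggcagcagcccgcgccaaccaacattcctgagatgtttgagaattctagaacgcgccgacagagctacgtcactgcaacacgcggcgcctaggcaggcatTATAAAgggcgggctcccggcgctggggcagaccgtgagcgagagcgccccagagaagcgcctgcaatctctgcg
Krt8: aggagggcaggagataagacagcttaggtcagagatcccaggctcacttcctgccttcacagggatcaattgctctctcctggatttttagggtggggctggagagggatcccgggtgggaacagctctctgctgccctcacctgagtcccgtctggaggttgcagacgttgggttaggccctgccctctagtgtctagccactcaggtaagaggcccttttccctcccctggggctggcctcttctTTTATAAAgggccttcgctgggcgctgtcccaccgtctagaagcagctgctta
Chek1: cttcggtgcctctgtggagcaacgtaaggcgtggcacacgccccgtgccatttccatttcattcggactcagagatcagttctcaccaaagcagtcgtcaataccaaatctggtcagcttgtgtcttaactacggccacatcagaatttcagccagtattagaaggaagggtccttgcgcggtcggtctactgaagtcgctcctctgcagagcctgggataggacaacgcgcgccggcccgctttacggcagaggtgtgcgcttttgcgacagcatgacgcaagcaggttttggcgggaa
Col3a1: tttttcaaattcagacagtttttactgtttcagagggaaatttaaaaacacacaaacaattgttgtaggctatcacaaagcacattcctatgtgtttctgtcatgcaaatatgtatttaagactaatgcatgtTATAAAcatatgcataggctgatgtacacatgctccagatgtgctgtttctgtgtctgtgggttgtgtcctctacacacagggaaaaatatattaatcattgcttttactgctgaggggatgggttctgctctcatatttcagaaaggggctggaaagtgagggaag
A match lay 25 bases before the annotated start in Ccn1, 3 bases before it in Krt8 on the minus strand, 1 base before it in Krt8 on the plus strand and 117 bases before it in Col3a1, and Chek1 held none. The motif was present in 13.6% of the 32851 promoters of the table. Among the 22 genes of the main comparison below that have a promoter in this table, 8 held it in any of their promoters. That is a count of genes, while the 13.6% is a share of promoters, so they cannot be compared. A match describes these letters only.

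Few genes separated NP from AF beyond the spread between cKO mice once all genes were considered. Of 16665 genes tested, 26 differed at an adjusted p under 0.05 (0.156%), 10 of them higher and 16 lower in NP (limma with Benjamini-Hochberg adjustment). The genes higher in NP were led by Ccn1, a secreted matricellular protein of the CCN family, and those lower in NP by Chek1, the checkpoint kinase of the DNA damage response. Their differences ran from 1.64 to 2.94 for the higher genes and from -2.48 to -1.51 for the lower genes on the log2 scale. The adjusted p of all 26 genes lay between 0.0461 and 0.0473, just under the threshold. Without adjustment 2965 genes (17.8%) had p under 0.05, and 2231 genes (13.4%) passed the thresholds of the study, a share close to that of the intron and exon controls above, with 1134 higher (6.8%) and 1097 lower (6.58%) in NP. On 982 genes (5.89%) every NP array lay above every AF array, and on 1011 genes (6.07%) every NP array lay below.

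The count of 26 depended on single arrays. No gene was called without NP array 1, 3 or 4 or without AF array 2, 3 or 4, 2 genes were called without NP array 2, neither of them among the 26, and 41 were called without AF array 1, 20 of them among the 26. A fit over all 16 arrays, which estimates the spread from both genotypes, called 239 genes, 120 higher and 119 lower, with 25 of the 26 among them, while a trended and robust eBayes on the cKO arrays called 0, with a lowest adjusted p of 0.0564 and 2914 genes at an unadjusted p under 0.05. All of these fits took the NP and AF arrays of the same mice as independent. Adjusted p of the fit over all 16 arrays is also given below for some genes that were not called. With NP arrays 1 and 3, or AF arrays 1 and 4, left out together, no gene was called (limma, lowest adjusted p 0.406 and 0.092). The split by direction followed the scaling. With no centring, which shifts the median gene by -0.53, 37 genes were higher and 2092 lower in NP, quantile normalization left 2 higher and 0 lower, and centring on the background control probe sets gave 5 higher and 19 lower. All 26 genes kept their direction under every alternative that gave a value, but this was largely fixed in advance. The tissues did not overlap for any of them, so leaving out arrays could not reverse a difference. Their smallest absolute difference was 1.51, larger than the shift with no centring. The kept direction is therefore no support for these calls.

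Ccn1 had the largest difference among the genes higher in NP. Its centred signal was 3.16, 1.51, 3.59 and 1.82 in cKO NP, against -0.52, -0.70, -0.33 and -0.15 in cKO AF. Every NP array lay above every AF array, with arrays 1 and 3 highest (difference 2.94 ± 0.45 SE, adjusted p = 0.0461). Ccn1 was over background on 4 NP arrays and on 0 AF arrays, so its fold is a bound: at least 3.38-fold higher in NP, the NP mean against the mean over AF arrays of the lowest signal that counts as over background or the gene's own signal, whichever was higher. Cwf19l2, which encodes a CWF19-like protein, was 2.38, 1.749, 2.86 and 1.36 in cKO NP, against -0.78, -0.69, -1.25 and 0.11 in cKO AF (at least 2.5-fold higher). Zfp280c, a zinc finger protein, was nearly constant in NP and spread in AF: 2.66, 2.82, 2.62 and 2.72 in cKO NP, against -0.38, 0.06, 0.91 and 1.22 in cKO AF (4.76-fold higher, over background on 2 AF arrays). Cabp1, a calcium-binding relative of calmodulin, was 3.96, 3.55, 3.42 and 3.66 in cKO NP, against 0.46, 2.09, 1.19 and 1.87 in cKO AF (4.74-fold higher, over background on 3 AF arrays). None of these 4 genes had overlapping tissues.

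The other 6 genes higher in NP lay close to background. Phf14, which encodes a PHD finger protein, was 0.95, 0.86, 1.06 and 1.02 in cKO NP, against -0.41, -1.29, -1.11 and -1.31 in cKO AF (at least 1.16-fold higher). Ntf5, neurotrophin 5, a ligand of the TrkB receptor, was over background on 2 of the 4 NP arrays, at 0.78, 1.03, 1.59 and 0.43 in cKO NP, against -0.98, -0.91, -0.98 and -1.4 in cKO AF (at least 1.14-fold higher). Slc38a1, a glutamine transporter, was also over background on 2 NP arrays, at 0.73, 0.85, 1.57 and 0.52 in cKO NP, against -0.82, -0.74, -1.01 and -0.88 in cKO AF (at least 1.11-fold higher). These 3 genes showed no overlap between the tissues. Zmym5, a zinc finger protein, and Myh2, the heavy chain of fast type IIA muscle myosin, were over background on 3 NP arrays each, with differences of 1.77 ± 0.27 and 1.64 ± 0.26 (SE). Pcx, pyruvate carboxylase, differed by 1.65 ± 0.27 (SE) but was over background on no cKO array, and no fold is given for it.

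**Figure D1:**
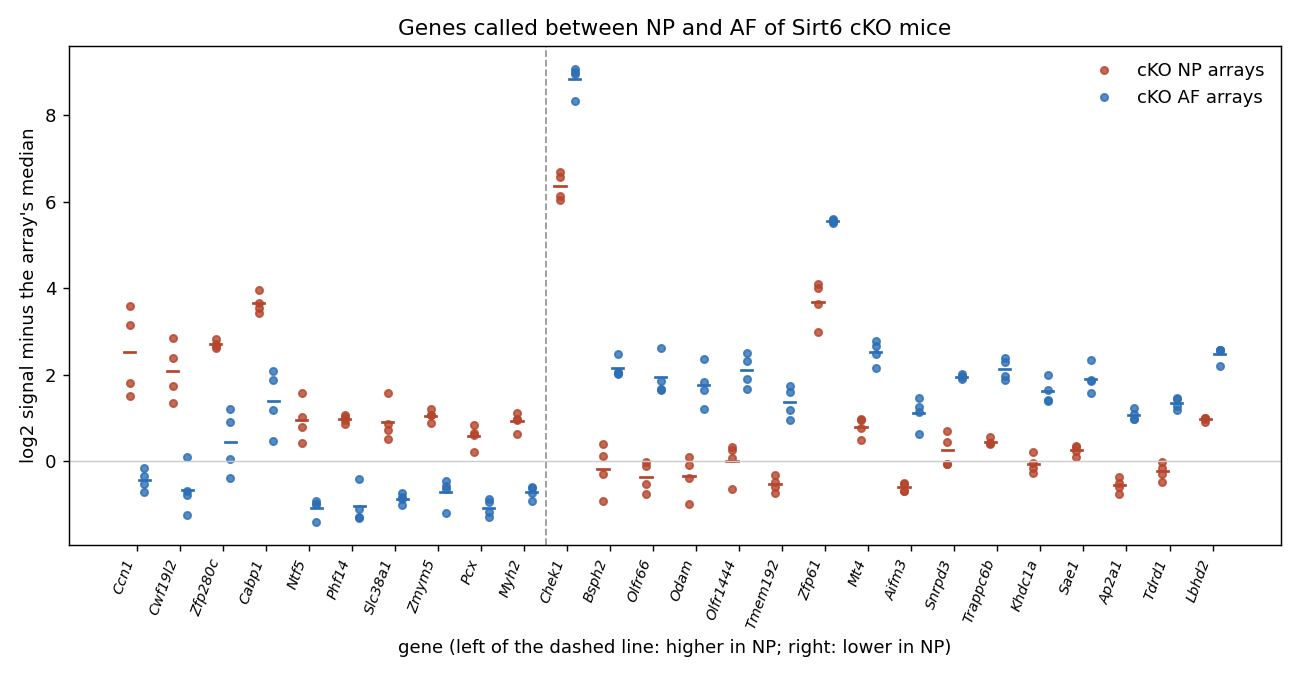
Centred log2 signal (y axis) of the 26 genes that differed between cKO NP (left of each pair) and cKO AF (right), with a point per array and a line at each mean (n = 4 arrays each). The tissues do not overlap for any of the 26 genes, and most of the dimmer tissue's arrays lie near or below the array median of 0.

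Genes lower in NP included a pair that was over background on every array of both tissues. Chek1 was 6.68, 6.05, 6.12 and 6.58 in cKO NP, against 8.33, 9.08, 8.95 and 9.0 in cKO AF (difference -2.48 ± 0.29 SE, adjusted p = 0.0461), a 5.58-fold lower signal in NP. Zfp61, a zinc finger protein, was 2.98, 3.63, 4.01 and 4.09 in cKO NP, against 5.53, 5.6, 5.51 and 5.59 in cKO AF, 3.68-fold lower in NP. For both genes the gap between the tissues was larger than the range within either. Mt4, a metallothionein of stratified squamous epithelium, was 0.48, 0.98, 0.94 and 0.78 in cKO NP, against 2.15, 2.67, 2.79 and 2.48 in cKO AF, 3.31-fold lower and over background on 2 NP arrays. Lbhd2, over background on all arrays, was 0.97, 1.01, 0.99 and 0.91 in cKO NP, against 2.57, 2.57, 2.56 and 2.2 in cKO AF, 2.84-fold lower.

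The remaining 12 genes lower in NP were under background on all 4 NP arrays. They included genes of general cell functions: Snrpd3, a core protein of spliceosomal snRNPs, Trappc6b, a subunit of the TRAPP trafficking complex, Sae1, a subunit of the SUMO-activating enzyme, Ap2a1, a subunit of the AP-2 clathrin adaptor, Tmem192, a lysosomal membrane protein, and Aifm3, a relative of apoptosis-inducing factor. Snrpd3 was 0.44, -0.06, -0.07 and 0.70 in cKO NP, against 1.96, 1.9, 1.95 and 2.03 in cKO AF (at least 2.14-fold lower). Trappc6b was 0.41, 0.57, 0.41 and 0.41 in cKO NP, against 2.29, 1.87, 2.38 and 1.98 in cKO AF (at least 2.4-fold lower). The bounds for Sae1, Tmem192, Aifm3 and Ap2a1 were at least 2.07-fold, 1.42-fold, 1.19-fold and 1.15-fold lower, with Aifm3 over background on 3 of the 4 AF arrays. The others are known mainly from tissues outside the disc: Bsph2, a sperm-binding protein, the olfactory receptors Olfr66 and Olfr1444, Odam, a protein of enamel-forming ameloblasts, Khdc1a of oocytes and Tdrd1, a tudor protein of the germline. Bsph2 was 0.12, -0.28, 0.40 and -0.92 in cKO NP, against 2.49, 2.06, 2.03 and 2.03 in cKO AF (at least 2.44-fold lower). The bounds of the other 5 ran from at least 1.4-fold for Tdrd1 to at least 2.36-fold for Olfr1444. All 12 genes had an AF array set wholly above the NP arrays.

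The fl/fl arrays measured the same tissue difference in other animals, and their values did not enter the fit that called these genes. They did enter the filter on low signal and the choice of probe set, which used all 16 arrays. All 26 genes had the same direction in fl/fl mice, 21 of them at an unadjusted p under 0.05, against 16.5% of all genes tested in either direction. Of the 2231 genes at the study thresholds in cKO, 89.2% had the same direction in fl/fl, 38.4% with an unadjusted p under 0.05. The share of all genes tested with the same direction in both genotypes was not counted, so the 89.2% has no background here. On 15 of the 26 the fl/fl arrays did not overlap in that direction, where 10.6% of all genes tested did not overlap in fl/fl in either direction. The fl/fl NP and AF arrays also differed as sets, so a shared direction does not separate tissue from handling. The fl/fl comparison called 59 genes (0.354%), 38 higher and 21 lower in NP, and 3 of these were among the 26. Ccn1 was 2.13, 1.52, 2.46 and 2.25 in fl/fl NP, against 0.08, -0.42, -0.34 and 1.14 in fl/fl AF, again without overlap (difference 1.97, unadjusted p = 0.000154). Cwf19l2 differed by 2.31 and Slc38a1 by 1.76 in fl/fl. Chek1 was 6.55, 7.91, 7.24 and 6.64 in fl/fl NP, against 8.95, 8.52, 10.56 and 8.69 in fl/fl AF (difference -2.09, unadjusted p = 0.000468). Pcx (0.35), Tdrd1 (-0.41), Zmym5 (0.94), Bsph2 (-0.96) and Tmem192 (-0.88) did not reach p under 0.05 in fl/fl. Since the 26 genes were chosen for a large difference in cKO mice, their smaller differences in fl/fl are no comparison of the genotypes.

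**Figure D2:**
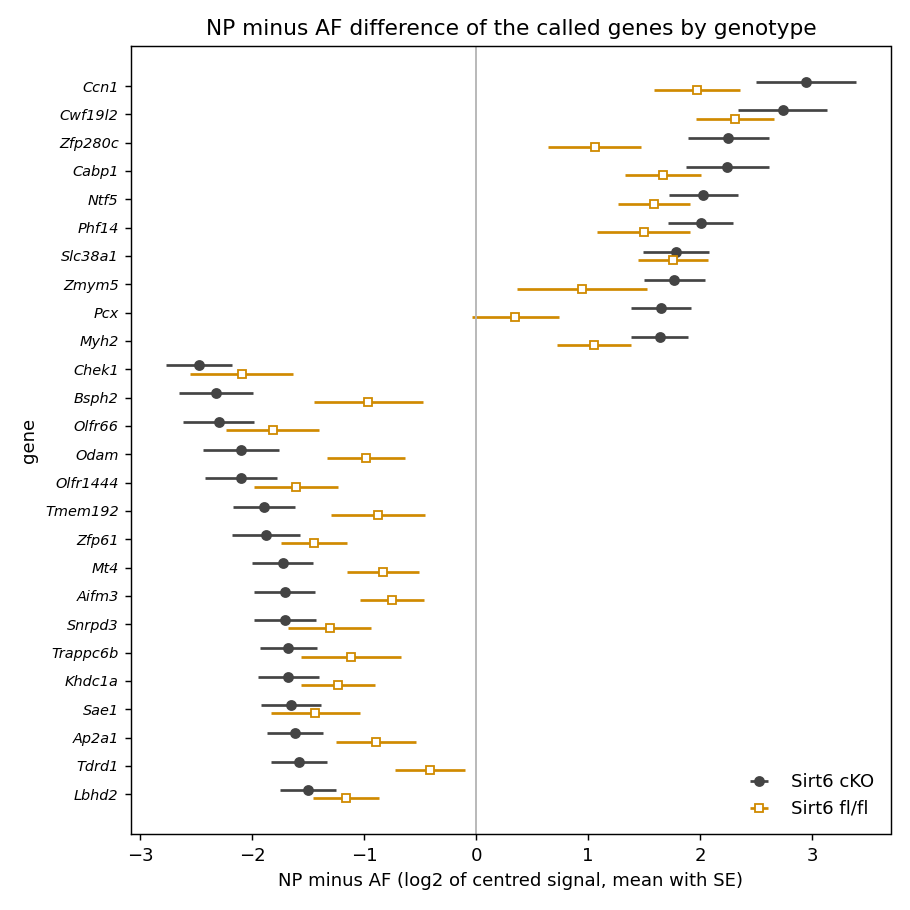
NP minus AF difference in log2 centred signal (x axis, mean and SE, n = 4 arrays per tissue) of the 26 genes in Sirt6 cKO mice (filled circles, the comparison that chose them) and in Sirt6 fl/fl mice (open squares). All 26 points of fl/fl mice lie on the same side of 0 as those of cKO mice.

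Whether the tissue difference itself differed between the genotypes was tested by the difference of differences over all 16 arrays. No gene passed (limma, lowest adjusted p = 0.987), and 702 genes (4.21%) had an unadjusted p under 0.05. The 5 named genes with the lowest p were Gfi1b, a transcriptional repressor of blood lineages, Tmprss7, a membrane serine protease, Tra2b, a splicing regulator, Alg13, a subunit of an N-glycosylation enzyme, and Tfg, a protein of ER export. Gfi1b was 0.23, -0.19, 0.23 and -0.24 in cKO NP, against 1.21, 1.7, 0.70 and 1.15 in cKO AF. In fl/fl mice it was 0.63, 0.67, 0.35 and 0.61 in fl/fl NP, against -0.15, -0.13, 0.19 and -0.33 in fl/fl AF. The tissues did not overlap in either genotype and their order was opposite (adjusted p of the difference = 0.987). Gfi1b was over background on 3 cKO AF arrays and on 0 arrays of cKO NP, fl/fl NP and fl/fl AF. Its order in fl/fl thus lay wholly under background. Tfg was -0.62, -0.41, -0.15 and 0.27 in cKO NP, against 1.61, 2.91, 1.92 and 1.37 in cKO AF, a gap that the fl/fl mice did not show (-0.13, 2.07, 1.17 and 0.87 in fl/fl NP, against 0.06, 1.02, 1.02 and 0.38 in fl/fl AF), and Tra2b overlapped in cKO (difference -0.72) and had a difference of 2.37 in fl/fl. All 3 had an adjusted p of 0.987 for the difference between genotypes.

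The labelled tissues were checked against NP markers. Keratins 8 and 19 stood higher in cKO NP but short of the adjusted threshold, and the other markers overlapped. Krt8, an intermediate filament of simple epithelia and notochord, was 6.15, 2.5, 5.16 and 3.19 in cKO NP, against -0.16, 1.28, 1.65 and 2.38 in cKO AF (difference 2.96 ± 0.77 SE, adjusted p = 0.111, 7.79-fold), and no array of either tissue crossed into the range of the other. Krt19 was 2.05, 0.30, 1.18 and 0.59 in cKO NP, against -0.79, 0.19, -1.38 and -1.14 in cKO AF (difference 1.81 ± 0.45 SE, adjusted p = 0.101), also without overlap but over background on only 2 NP arrays. In the fit over all 16 arrays Krt8 had an adjusted p of 0.0436 and Krt19 of 0.0768. Without NP arrays 1 and 3 their differences were 1.56 and 1.22. In fl/fl mice the same differences were 1.91 and 1.84, with overlap of single arrays.

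Krt18, the partner of Krt8, was 3.14, 1.0, 3.16 and -0.37 in cKO NP, against -0.70, 0.53, -0.02 and 0.91 in cKO AF. Arrays 1 and 3 of NP lay above all AF arrays, while NP array 4 lay below most of them (adjusted p = 0.29). Dsp, the desmosomal plaque protein desmoplakin, was 1.49, 0.32, 1.18 and 0.96 in cKO NP, against -1.19, 0.49, -0.61 and -1.17 in cKO AF (difference 1.61 ± 0.41 SE, adjusted p = 0.108), with only AF array 2 reaching into the NP range. Tjp1, the tight junction protein ZO-1, was -0.88, -0.31, 0.07 and -0.04 in cKO NP, against -0.15, 1.67, 0.83 and 1.29 in cKO AF and overlapped. Shh, the notochordal signal, differed by -0.22, Cdh2, N-cadherin, by 0.60, Cd24a, an NP surface marker, by 0.42 and Car3, carbonic anhydrase III, by 1.41, all with overlap. In fl/fl mice Shh (0.44) and Cdh2 (-1.05) differed in the opposite direction, also with overlap. Of the list of NP and notochord markers 2 of the 15 members tested lay above AF on every NP array and 0 lay below, against 5.89% and 6.07% of all genes tested. None was called, 9 differences were positive and 6 negative, and the list median was 0.35, against 0.00023 over all genes tested. Krt8 and Krt19 are members of this list and of the next. Of the list of simple epithelial keratins and desmosomal genes 3 of the 13 members tested lay above AF on every NP array and 0 lay below (median 0.40), and 12 of the 13 were higher in NP by mean, against 9 after quantile normalization, 9 with centring on background controls and 6 with no centring (median -0.12). With no centring the median of the NP and notochord markers was -0.18. No centring shifts every difference by the same amount, and of all 16665 genes tested 3032 were then positive (median -0.53). The sign of both list medians thus depended on the scaling, while both stayed above the median of all genes.

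**Figure D3:**
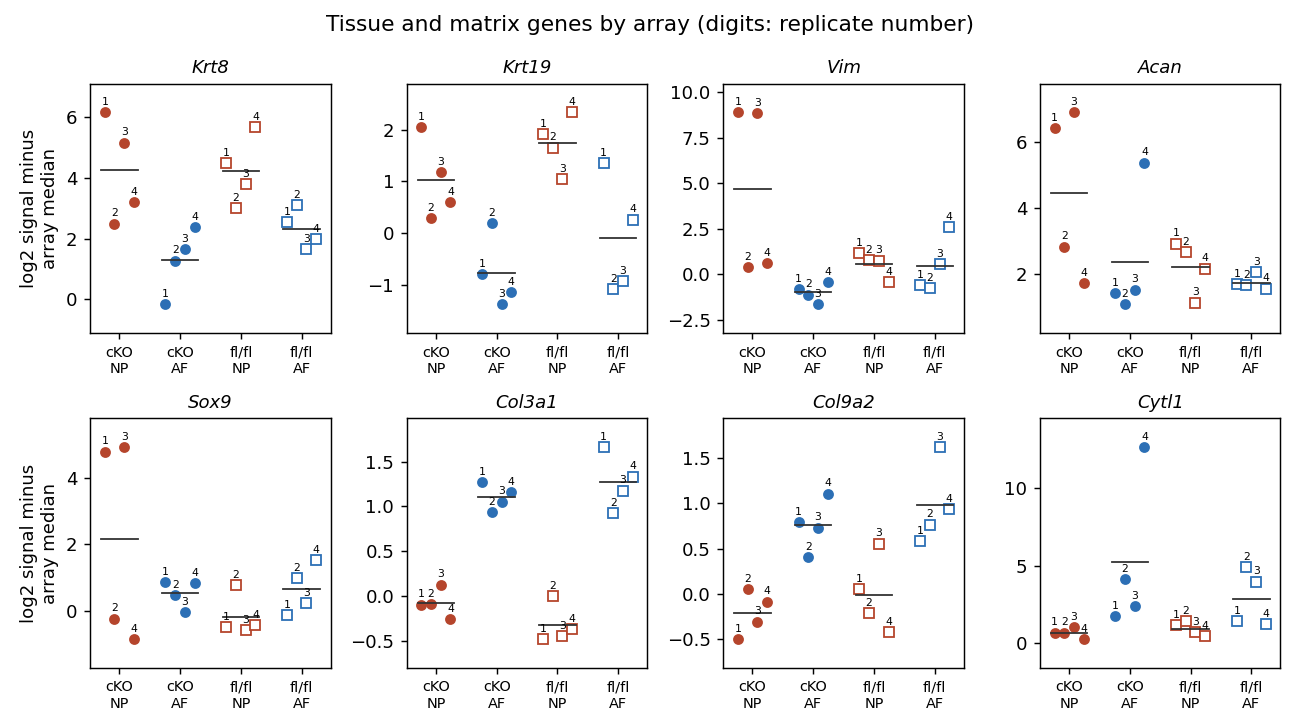
Centred log2 signal (y axis) of 8 tissue and matrix genes by group, cKO left of fl/fl and NP left of AF, with a point per array labelled by its replicate number and a line at each mean (n = 4 arrays). In cKO NP arrays 1 and 3 lie above arrays 2 and 4 for Krt8, Vim, Acan and Sox9, and Cytl1 and Acan are highest on array 4 among the cKO AF arrays.

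Several abundant genes were high on 2 of the 4 cKO NP arrays and not on the others, disc genes and genes that every cell uses alike. The 53 cytosolic ribosomal proteins tested had a mean level of 4.7, 1.73, 4.42 and 1.45 on NP arrays, against 1.48, 2.53, 2.25 and 3.82 on AF arrays. The 41 oxidative phosphorylation genes tested had a mean level of 1.32, 0.45, 1.48 and 0.65 on NP arrays, against 0.51, 0.71, 0.49 and 1.59 on AF arrays. Both lists were highest among NP arrays on arrays 1 and 3 and among AF arrays on array 4, and their part in the values below was not tested. Vim, the intermediate filament vimentin, was 8.89, 0.37, 8.86 and 0.59 in cKO NP, against -0.83, -1.12, -1.66 and -0.43 in cKO AF. NP arrays 1 and 3 held its highest values, while NP arrays 2 and 4 lay close to the AF arrays, and the difference of 5.69 ± 1.79 (SE, adjusted p = 0.157) was 1.49 without NP arrays 1 and 3. Acan, the core protein of aggrecan, was 6.41, 2.83, 6.89 and 1.73 in cKO NP, against 1.42, 1.08, 1.52 and 5.37 in cKO AF, with NP arrays 1 and 3 and AF array 4 high. Sox9, the regulator of cartilage genes, was 4.78, -0.23, 4.92 and -0.85 in cKO NP, against 0.85, 0.48, -0.04 and 0.83 in cKO AF, and its difference of 1.63 was -1.07 without NP arrays 1 and 3. Lgals1, galectin 1, was 5.89, 1.49, 7.12 and 1.26 in cKO NP, against -0.36, 0.24, 1.58 and 0.82 in cKO AF. It was high on NP arrays 1 and 3 again. Atf4, a transcription factor of the integrated stress response, was 3.63, 0.26, 4.19 and -0.64 in cKO NP, against -0.78, -0.99, -1.2 and -0.85 in cKO AF. All 5 genes had an adjusted p above 0.05 (0.157 to 0.493). Col2a1, type II collagen, was 2.92, 1.42, 4.66 and 0.71 in cKO NP, against 0.35, 1.51, 2.26 and 2.61 in cKO AF and overlapped between the tissues. Of the mesenchymal cytoskeleton list 1 of the 21 members tested lay above AF on every NP array and 0 lay below, against 5.89% and 6.07% of all genes tested, and the mean level of the list was 2.45, 0.63, 2.39 and 0.58 on the NP arrays, against -0.05, 0.55, 0.31 and 1.31 on the AF arrays. Its median difference was 0.87, against 0.40 in fl/fl, and 0.35 in cKO with no centring.

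Markers of the AF and tendon lineage did not separate the tissues in cKO mice. Scx, the transcription factor scleraxis, was -0.35, -0.28, -0.25 and 0.26 in cKO NP, against -0.56, 0.74, 0.08 and 0.55 in cKO AF, under background on all 8 arrays. Mkx, the tendon regulator mohawk, was 1.91, 1.67, 0.97 and 1.06 in cKO NP, against 0.58, 1.88, 1.06 and 0.93 in cKO AF. Tnmd, the tendon membrane protein tenomodulin, was 0.99, 1.15, 0.76 and 2.05 in cKO NP, against -0.64, 1.51, 1.22 and 0.08 in cKO AF. All 3 overlapped. Tnc (tenascin C) was lower in NP by mean (-0.87) and Angptl7 as well (-0.73), both with overlap. Eln (elastin, -0.81) lay below AF and Igfbp6 (an IGF binding protein, 0.73) lay above AF on every NP array. Igfbp6 was under background on all 8 cKO arrays, and Eln was over it on 1 AF array only. Of the AF and tendon list 1 of the 18 members tested lay above AF on every NP array and 1 lay below (median -0.13). These counts were near the 5.89% and 6.07% of all genes tested. With no centring 1 member lay above and 5 below, against 149 and 3558 of all 16665 genes tested.

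Among the 12 fibrillar and associated collagens tested, Col3a1 was the one whose tissues stood apart. With no centring 3 of the 12 lay below AF on every NP array, against 3558 of all 16665 genes tested. Type III collagen is a fibril component of AF and tendon, and its centred signal was -0.10, -0.09, 0.13 and -0.26 in cKO NP, against 1.27, 0.94, 1.05 and 1.16 in cKO AF (difference -1.19 ± 0.25 SE, adjusted p = 0.0821). It was over background on all AF arrays and on 0 NP arrays, at least 1.18-fold lower in NP. In fl/fl mice it was -0.48, -0.01, -0.45 and -0.37 in fl/fl NP, against 1.66, 0.92, 1.18 and 1.33 in fl/fl AF, again without overlap (difference -1.6, unadjusted p = 9.38e-05), and the fit over all 16 arrays gave an adjusted p of 0.0265 in cKO. Col1a1, the main chain of type I collagen, was 1.22, 0.76, 0.81 and 1.35 in cKO NP, against 2.05, 1.77, 0.77 and 3.17 in cKO AF (adjusted p = 0.319), and Col1a2 differed by -0.36. Both overlapped. Col5a3 (-0.66) and Col6a1 (0.60) overlapped as well. The median of these 12 fibrillar and associated collagens was -0.23.

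Cartilage matrix genes had mostly negative differences in cKO mice, although none was called. Col9a3, a chain of the type IX collagen that coats cartilage fibrils, was 4.02, 4.26, 3.6 and 4.22 in cKO NP, against 4.84, 4.6, 4.9 and 4.63 in cKO AF (difference -0.72 ± 0.27 SE, adjusted p = 0.209, 1.64-fold). Its partner Col9a2 was -0.50, 0.05, -0.31 and -0.08 in cKO NP, against 0.79, 0.40, 0.73 and 1.11 in cKO AF (difference -0.97 ± 0.28 SE), without overlap but near background in both tissues, and it differed by -0.98 in fl/fl without overlap. Epyc, a small proteoglycan of growth plate cartilage, differed by -1.06. Cytl1, a secreted factor of chondrocytes, was 0.69, 0.68, 1.02 and 0.27 in cKO NP, against 1.73, 4.13, 2.41 and 12.64 in cKO AF. AF array 4 was far above the others, and the difference of -4.56 was -2.61 without AF arrays 1 and 4. Of the list 0 of the 22 members tested lay above AF on every NP array and 4 lay below, against 5.89% and 6.07% of all genes tested. There were 6 positive and 16 negative differences, with a median of -0.41, against -0.09 in fl/fl. The cKO median was -0.35 after quantile normalization (0.0036 over all genes tested). No centring and centring on background controls shift all genes down (medians -0.53 and -0.10), so the list medians of -0.94 and -0.51 there do not test the direction. The mean level of the cartilage list was 0.40 to 0.93 on NP arrays, against 0.54, 0.94, 1.0 and 3.12 on AF arrays, highest on AF array 4. Dcn (decorin), which binds collagen fibrils, followed the same arrays, at -0.15, -0.31, 0.14 and 0.09 in cKO NP, against 0.49, 1.99, 1.05 and 5.94 in cKO AF, and of the 15 small leucine-rich proteoglycans tested 0 lay above and 2 lay below AF on every NP array. Omd, osteomodulin, differed by 0.91 and Optc, opticin, by 0.70, both with overlap.

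Genes that build and cut the matrix showed single members that stood apart. Loxl4, a lysyl oxidase-like enzyme that cross-links collagen, was 2.91, 2.3, 1.48 and 1.91 in cKO NP, against 0.74, 1.18, 0.42 and 0.71 in cKO AF (difference 1.39 ± 0.35 SE, adjusted p = 0.103, 2.62-fold), without overlap, against a difference of 0.30 in fl/fl. Mmp10, the matrix metalloproteinase stromelysin 2, was -0.66, -0.38, -0.65 and -1.0 in cKO NP, against 0.02, 0.11, 0.80 and 0.21 in cKO AF, also without overlap but over background on 1 AF array only. Mmp13 (-0.78) and Mmp3 (0.97) overlapped. Of the proteases, inhibitors and cross-linking enzymes 1 of the 18 members tested lay above AF on every NP array and 1 lay below. These counts were near the 5.89% and 6.07% of all genes tested. The median was 0.28, and -0.25 with no centring, where all genes tested had a median of -0.53. Among enzymes of glycosaminoglycan synthesis, Xylt2, which starts the chains, was 0.65, 0.54, 0.55 and 1.16 in cKO NP, against -0.40, -0.41, 0.16 and 0.17 in cKO AF. Dsel, a dermatan sulfate epimerase-like protein, was 0.05, 0.58, 0.00 and 0.24 in cKO NP, against 1.59, 0.73, 1.02 and 1.21 in cKO AF. Xylt2 lay above and Dsel below AF on every NP array. Chst3 (0.85) and Chsy3 (0.96), a sulfotransferase and a synthase of chondroitin, overlapped. The median over 27 of these enzymes was 0.29, against 0.32 in fl/fl.

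Genes of osmotic adaptation and ion transport were mostly higher in cKO NP by value. Slc6a6, the taurine transporter, was 1.08, 0.47, 1.69 and 0.05 in cKO NP, against -0.13, -0.91, -0.51 and -0.63 in cKO AF (difference 1.37 ± 0.37 SE, adjusted p = 0.122). Slc12a2, the sodium-potassium-chloride cotransporter NKCC1, was 0.60, 0.51, 0.66 and 0.17 in cKO NP, against -0.68, -0.18, -0.39 and -0.73 in cKO AF (difference 0.98 ± 0.27 SE, adjusted p = 0.122), and it also did not overlap in fl/fl (difference 1.16). Atp1b1, the beta subunit of the sodium pump, differed by 1.0 ± 0.29 (SE) without overlap, and Car2, carbonic anhydrase II, by 1.11 with overlap. Slc12a2 and Atp1b1 were under background on all 8 arrays and Slc6a6 was over it on 2 NP arrays. Of this list 4 of the 13 members tested lay above AF on every NP array and 0 lay below, against 5.89% and 6.07% of all genes tested, 11 of the 13 differences were positive, and the median was 0.55, against 0.54 in fl/fl, with none called. With no centring 7 of the 13 differences were positive and 0 members lay above AF on every NP array (median 0.025). Of all 16665 genes tested 3032 were then positive and 149 lay above (median -0.53).

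In the Wnt pathway, which is active in notochord and NP, 6 of the 28 members tested lay above AF on every NP array and 2 lay below, against 5.89% and 6.07% of all genes tested, with a median of 0.08 and none called. With no centring 1 member lay above and 5 below (median -0.44), against 149 and 3558 of all 16665 genes tested (median -0.53). With centring on background controls the counts were 5 and 3 (median -0.016). Tcf7l2, a transcription factor that acts with beta-catenin, was -0.10, 0.77, 0.65 and 0.67 in cKO NP, against -1.11, -0.74, -1.16 and -1.35 in cKO AF (difference 1.59 ± 0.29 SE, adjusted p = 0.0761, 0.0258 in the fit over all 16 arrays). Dkk2, a secreted modulator, was 0.31, 0.96, -0.23 and 0.38 in cKO NP, against -1.11, -1.06, -0.43 and -1.06 in cKO AF. Rspo2, a secreted amplifier, lay on the other side, at -0.53, -1.12, -0.37 and -0.45 in cKO NP, against -0.05, 0.78, 1.71 and 0.48 in cKO AF. None of these 3 overlapped between tissues, though Tcf7l2 was under background on all 8 arrays and the other 2 were over it on 1 array each. The coreceptor Lrp6 was 2.2, 2.03, 2.47 and 1.55 in cKO NP, against -0.07, 0.78, -0.21 and 1.82 in cKO AF and overlapped through AF array 4. Among TGF-beta and BMP genes 3 of 33 lay above and 1 below AF on every NP array (median -0.01). These counts were near the 5.89% and 6.07% of all genes tested. With no centring 1 of the 33 lay above and 7 below, against 149 and 3558 of all 16665 genes tested. The ligand Tgfb1 was 0.52, 0.99, 1.42 and 0.19 in cKO NP, against -0.39, -0.96, -0.98 and -0.35 in cKO AF (difference 1.45 ± 0.33 SE, adjusted p = 0.0905, 0.0339 in the fit over all 16 arrays), and it did not overlap in fl/fl either (difference 1.03). The ligand Bmp6 differed by 1.1, Id2, a BMP target, by 1.91 and Ltbp3, which binds latent TGF-beta, by -0.86, all without overlap. Bmp6 and Ltbp3 were under background on all 8 cKO arrays. Without NP arrays 1 and 3 the difference of Id2 was 0.96.

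Glycolytic and hypoxia genes, which support NP cells in their avascular niche, had a median difference of 0.48 in cKO, against 0.01 in fl/fl. With no centring the cKO median was -0.051, against -0.53 over all genes tested. On every NP array 3 of 31 members lay above AF and 1 below, against 5.89% and 6.07% of all genes tested. Those above were Pgam1 and Hk1, enzymes of glycolysis, by 0.82 and 0.73, and Pdk1, a kinase that inhibits pyruvate dehydrogenase. Pdk1 was named after its value of 0.73 was seen, and Pgam1 and Hk1 were under background on all 8 cKO arrays. Pfkm, phosphofructokinase of muscle, lay below (-0.66), and Hk2, the inducible hexokinase, overlapped (1.27). The list mean was 1.94, 0.28, 2.02 and 0.12 on NP arrays, against 0.34, 0.24, 0.38 and 1.03 on AF arrays, and thus higher on NP arrays 1 and 3 than on all others. Of heat shock and ER chaperone genes 3 of 21 lay above and 1 below AF on every NP array, against 5.89% and 6.07% of all genes tested. With no centring 0 lay above and 2 below (median -0.13), against 149 and 3558 of all 16665 genes tested (median -0.53). Hspb1, the small heat shock protein HSP25, was 1.94, 0.56, 2.89 and 1.45 in cKO NP, against -0.92, 0.55, -0.51 and 0.07 in cKO AF (difference 1.91 ± 0.49 SE, adjusted p = 0.107, 0.0444 in the fit over all 16 arrays). It was also apart in fl/fl mice, at 1.05, 1.92, 1.21 and 2.11 in fl/fl NP, against -1.34, -1.31, -0.01 and -0.70 in fl/fl AF (difference 2.42). Pdia6, a protein disulfide isomerase, differed by 0.78 in cKO and 1.3 in fl/fl, without overlap in either, and Canx (calnexin) by 1.94 and 1.97, with overlap. Pdia6 was under background on all 8 cKO arrays.

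Of the sirtuin family, 4 members passed the filter on low signal. Sirt3, a mitochondrial deacetylase, was 1.41, 1.61, 2.07 and 1.32 in cKO NP, against 0.60, 0.78, 1.32 and 0.75 in cKO AF (difference 0.74 ± 0.29 SE, adjusted p = 0.225). The highest AF array and the lowest NP array were level at this precision. Sirt2, mainly cytoplasmic, was 2.85, 3.09, 2.84 and 2.01 in cKO NP, against 1.04, 2.01, 2.23 and 1.81 in cKO AF (difference 0.93 ± 0.35 SE, adjusted p = 0.212), with AF array 3 above the lowest NP array, and in fl/fl its tissues did not overlap (difference 1.02). Sirt1 (-0.17) and Sirt5 (-0.37) overlapped. The comparison is between tissues that both lost Sirt6, so it measures no effect of the deletion.

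Markers of other cell types were measured in both tissues, and muscle genes had no common direction. Of 30 skeletal muscle genes tested, 1 was called (Myh2, above) and 2 lay above and 2 below AF on every NP array, near the 5.89% and 6.07% of all genes tested. With no centring 1 lay above and 6 below, against 149 and 3558 of all 16665 genes tested. Cacna1s, the muscle calcium channel, was -0.71, -0.14, -0.53 and -0.23 in cKO NP, against 0.73, 1.32, 0.54 and 1.47 in cKO AF (difference -1.42 ± 0.31 SE, adjusted p = 0.0881). Ryr1, the release channel it couples to, was 0.08, 1.11, -0.14 and 0.25 in cKO NP, against -1.21, -0.89, -1.02 and -0.24 in cKO AF. Tnnt1, slow troponin T, was 1.69, 1.66, 1.752 and 1.56 in cKO NP, against 2.09, 2.35, 2.4 and 2.5 in cKO AF. Cacna1s and Tnnt1 lay lower and Ryr1 higher on every NP array. The mean level of the muscle list was 1.4, 0.37, 1.42 and 0.22 on NP arrays, against 0.17, 0.37, 0.05 and 1.85 on AF arrays, highest on NP arrays 1 and 3 and AF array 4, the arrays that were also high in matrix and cytoskeleton genes, and its part in those values was not tested. Smaller lists gave the osteoblast and osteocyte genes (0 above and 2 below of 8, mean level -0.11 to 0.21 on NP arrays, against 0.10 to 1.16 on AF arrays), the macrophage and leukocyte genes (1 above and 1 below of 15, mean level 0.12 to 0.42 on NP arrays, against 0.01 to 0.74 on AF arrays), the erythroid genes (0 above and 2 below of 6, mean level -0.37 to 0.06 on NP arrays, against 0.12 to 0.53 on AF arrays) and the epidermis genes (0 above and 0 below of 14, mean level 0.35 to 0.52 on NP arrays, against 0.05 to 0.42 on AF arrays). The erythroid means of the tissues did not overlap, with 1 of the 6 genes over background on at least 4 of the 8 cKO arrays, and the part of blood in any tissue difference was not tested. In whole tissue, fewer cells of a type and less RNA per cell cannot be told apart.

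**Figure D4:**
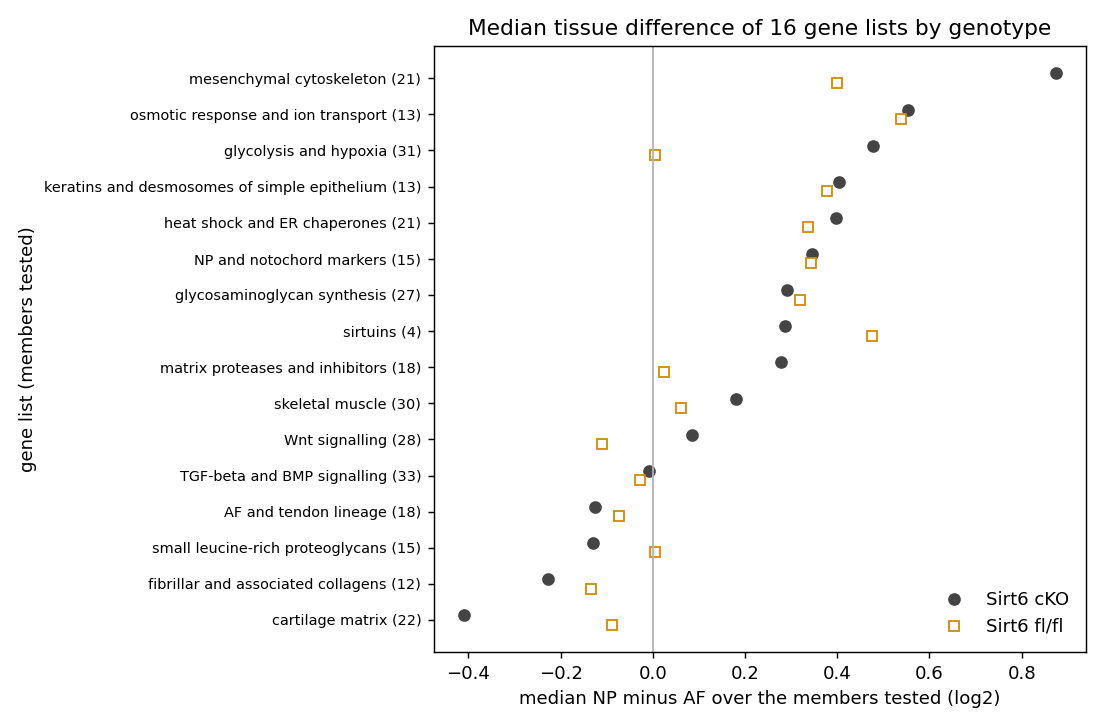
Median NP minus AF difference (x axis, log2) over the members tested of 16 gene lists, with Sirt6 cKO (filled circles) above Sirt6 fl/fl (open squares) in each row and the number of members in brackets. Without centring every cKO median would lie 0.53 lower. The cytoskeleton list has the highest cKO median, 0.87, and the cartilage matrix list the lowest, -0.41.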

How the data were processed

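NP and AF tissue of 24-month-old Sirt6 cKO and Sirt6 fl/fl mice was measured on 16 Mouse Clariom S arrays, 4 for each combination of tissue and genotype. The authors pooled the discs of 1 animal per sample, labelled cDNA from total RNA with biotin and summarised the scanned arrays by signal space transformation with robust multi-array analysis, using, by the submitters' processing notes, the Transcriptome Analysis Console. Deposited values were log2 signals for 28846 probe sets. Neither the methods nor the labels say whether NP and AF arrays were normalized jointly. Depth does not apply to arrays, and the number of arrays limits precision.

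Each array was centred on its median over all probe sets. Platform annotation gave 1 gene symbol to 19572 probe sets (19505 symbols), and 2634 gene probe sets were unnamed here. Probe sets above the 40th percentile of their array on at least 4 of the 16 arrays were kept, with the brightest of the 46 symbols that had several, which left 16665 genes. Over background means at least 2-fold above the median of 23 background control probe sets. NP and AF were compared in R 4.3.3 by limma 3.58.1 (eBayes after lmFit, 4 arrays against 4, Benjamini-Hochberg over 16665 genes), separately for cKO and fl/fl, and the difference of differences in 1 fit over 16 arrays. Arrays of the same mice were treated as independent, since the labels do not pair them. No pair of arrays held identical values. The fit was tested on simulated data.

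Named genes were a set of tissue markers, up to 15 genes per direction, led by those at an adjusted p under 0.05 that were over background on all arrays of the higher tissue and filled by the lowest unadjusted p, up to 4 members of each described list and the 5 genes with the lowest p for the difference of differences, predicted genes excepted. Aifm3 was added because it was called. The genes and lists were chosen with earlier results of these data known, and the study chose some of the themes on these arrays. Alternatives were other scalings, filters, fits and array sets, given in the closing section. The authors' SAM was not used here. Promoter sequences came from RefSeq (GRCm38.p6). Plots were made in Python 3.11.15 with matplotlib 3.10.9.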

Additional observations from a re-analysis of the deposited data

Results flagged for a closer look

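In some genes a single array lay far from the other 3 arrays of its tissue, by a gap that took up most of the range of the group (Dixon's criterion, which chance meets in about 5% of groups). The share of screened groups that met it was not counted, so these departures are not set apart from chance. All values are centred log2 signals of cKO arrays. Among NP arrays these were Psmd8 at 1.1 and Trappc6b at 0.57 on array 2, Tcf7l2 at -0.10 on array 1 and Xylt2 at 1.16 and Alg13 at 0.59 on array 4. Psmd8, a proteasome subunit, was 1.99, 1.1, 1.96 and 2.05 in cKO NP, against -0.53, 0.43, -0.10 and -0.47 in cKO AF (adjusted p = 0.0555). Among AF arrays they were Acan at 5.37, Ntf5 at -1.4 and Lbhd2 at 2.2 on array 4, Chek1 at 8.33, Bsph2 at 2.49, Igfbp6 at -0.49, Atp1b1 at -1.66 and Sirt1 at 1.76 on array 1, Chsy3 at -0.86 and Dkk2 at -0.43 on array 3 and Bmp6 at -0.47 on array 2. Acan on AF array 4 was the widest of these departures on the AF side, against 1.08 to 1.52 on the other 3. Trappc6b, Chek1, Bsph2, Lbhd2 and Ntf5 are among the 26 genes called, and their tissues stayed apart with these arrays included. Sirt1 on AF array 1 stood against -0.27 to -0.02 on the other AF arrays, and that array also had the lowest correlation with its group.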

How the results depend on the processing

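The count of genes called in cKO mice was the result that moved most. It was 26 (10 higher, 16 lower in NP) as reported, 24 with centring on background control probe sets (5 and 19), 2129 with no centring (37 and 2092), 2 after quantile normalization (2 and 0), 27 without the filter on low signal (10 and 17), 24 among genes over background on 4 or more of the 8 cKO arrays (6 and 18), 239 in 1 fit over all 16 arrays (120 and 119), 37 with array weights (14 and 23) and 2231 at the thresholds of the study (1134 and 1097). A trended and robust eBayes called 0 (lowest adjusted p = 0.0564; 2914 genes at an unadjusted p under 0.05), and so did testing every probe set (0.0915; 3030) and leaving out NP arrays 1 and 3 (0.406; 1629) or AF arrays 1 and 4 (0.092; 2824), while leaving out all 4 of these called 2, both lower in NP (0 and 2). Leaving out 1 array at a time gave 0 to 41 genes (0 to 12 higher, 0 to 29 lower). With the array number as a replicate block 0 genes were called in cKO (lowest adjusted p = 0.201; 2672 at an unadjusted p under 0.05) and 10 in fl/fl. Deviations of NP and AF arrays with the same number correlated at -0.14 to 0.05, so the numbers gave no sign of marking the same mouse, and the labels do not state it. In fl/fl mice 59 genes were called as reported, 2014 with no centring, 77 after quantile normalization and 1 to 23 without 1 array. For the difference of differences 0 genes were called under all 4 alternatives, replicate block included. The cause of these changes was not tested. All 26 genes called kept their direction under all alternatives that gave a value, which was largely fixed in advance because their tissues did not overlap. Some genes that were not called changed direction under an alternative, given here with their differences. With no centring this held for Cd24a (-0.10) and Mkx (-0.24). With array weights this held for Sirt1 (0.089). With cKO NP arrays 1 and 3 left out together this held for Cdh2 (-0.011), Cd24a (-0.54), Acan (-0.068), Col2a1 (-0.61), Sox9 (-1.07) and Alg13 (0.17). With cKO AF arrays 1 and 4 left out together this held for Shh (0.12), Col1a2 (0.046), Mkx (-0.065), Tnmd (-0.12), Sirt1 (0.26) and Alg13 (0.12). With all 4 of these arrays left out together this held for Cdh2 (-0.14), Cd24a (-0.76), Car3 (-0.52), Col2a1 (-0.82), Sox9 (-0.76), Col1a2 (0.17), Mkx (-0.10), Optc (-0.074), Sirt1 (0.014) and Alg13 (0.31). Without 1 array at a time the differences ran from -0.25 to 0.16 for Alg13, -0.55 to 0.067 for Col1a2, -0.36 to 0.31 for Sirt1. Signals near background limit precision: 20 of the 26 genes were over background on no array of the lower tissue. For 19 of these the size is known only as a bound. Pcx was over background on no array of either tissue and has no fold. The 4 arrays per tissue also limit what the test can call.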
